A study of Saccharomyces cerevisiae with 8 samples.

Results

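In budding yeast, 9 genes of inositol and phospholipid synthesis were followed across the 4 groups of the study, chosen by their identifiers: INO1 (YJL153C), INM1 (YHR046C), ITR1 (YDR497C), CHO1 (YER026C), PSD1 (YNL169C), CHO2 (YGR157W), OPI3 (YJR073C), INO2 (YDR123C) and OPI1 (YHL020C). They are 9 of the 7126 genes in the count files, and all 9 were among the 5778 genes that passed the filter on low counts. RNA was sequenced from 8 cultures, 2 per group. The CRN/PPN1 strain is CRN transformed with a vector that carries PPN1, a gene for a polyphosphatase, and it was grown in YPD with 5 mM MnSO4 for 16 h or in control YPD for 12 h. The CRN strain (MATa ade2 his3 ura3 ppn1Δ::CgTRP1) was grown in YPD with 5 mM MnSO4 for 40 h or in control YPD for 12 h. Both strains carry the chromosomal PPN1 deletion, and all media held 14 mM KH2PO4. The promoter that drives PPN1 on the vector is not given in the sources used here. The effect of manganese cannot be told apart from that of growth time in either strain, nor can the effect of the strain in manganese medium.

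The libraries held 2309776 to 3579469 reads counted to genes. PPN1 had 22035 and 25525 counts in the manganese libraries of CRN/PPN1 and 7216 and 7027 in its control libraries, against 3 to 39 in the 4 CRN libraries, in keeping with the labels. Levels are given as normalized CPM (a gene's counts relative to all counts of its library, scaled with TMM factors). The factors assume that most genes keep their share of the RNA. These factors ranged from 0.508 to 1.63. Scaling to the library total instead shifted the middle of the log2 fold changes over all genes (their median) by 1.48 for manganese in CRN, 0.67 for manganese in CRN/PPN1, 0.51 for the strains in control medium and -0.31 for the strains in manganese. All changes below are therefore relative to the bulk of the genes in the same comparison. The counts give neither the amount of RNA per cell nor the number of cells. The 2 cultures of a group were grown at the same time, so the standard errors (SE) cover no spread beyond that between such cultures. Each SE comes from the edgeR fit, from the log2 fold change and its F value. That fit estimates the spread over all 8 libraries and in part over genes, not from the cultures of 1 comparison alone.

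In yeast, inositol is either taken up or made from glucose 6-phosphate, and it is built into phosphatidylinositol. Phosphatidylserine, phosphatidylethanolamine and phosphatidylcholine are made in sequence from CDP-diacylglycerol. Genes of both routes are activated by the Ino2 and Ino4 proteins, which bind together to an inositol-sensitive promoter element (UASINO). The repressor Opi1 acts on Ino2. It is held at the endoplasmic reticulum by phosphatidic acid and the membrane protein Scs2, and moves to the nucleus when inositol is plentiful.

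The core of the UASINO element, CATGTG, was searched on both strands from 250 bases before to 50 bases after the first base of the coding sequence, in the RefSeq R64 genome. It was present in 6 of the 9 windows (INO1, ITR1, CHO1, PSD1, OPI3 and INO2), or 66.7%, against 10 of 67 other genes of lipid metabolism (14.9%) and 415 of all 6012 windows (6.90%). The longer form CATGTGAAA, which contains the core, was present in INO1, ITR1 and CHO1 and in 23 of 6012 windows (0.383%). INO1 was the only one of the 9 with GCCGCC, the core of the URS1 element through which Ume6 represses, which 309 of 6012 windows held (5.14%). CACGTG, bound by other proteins of the same family, was found in 0 of the 9 and in 2.89% of all windows. The letters CATGTG are not in the windows of CHO2, INM1 and OPI1. Forms of the core that differ from these letters were not searched, so a window without them may still hold such a form. Since most of the 9 genes are known for this control, these shares describe the genes and carry no test. The lines that follow give 4 of the windows, 5′ to 3′ on the strand of the gene, with the core on either strand in capitals. INO1, ITR1 and OPI3 are shown for their higher levels in manganese in both strains, and CHO1 because it holds the same core and was not higher in manganese with TMM scaling.
INO1, chrX:135884-136183, minus strand: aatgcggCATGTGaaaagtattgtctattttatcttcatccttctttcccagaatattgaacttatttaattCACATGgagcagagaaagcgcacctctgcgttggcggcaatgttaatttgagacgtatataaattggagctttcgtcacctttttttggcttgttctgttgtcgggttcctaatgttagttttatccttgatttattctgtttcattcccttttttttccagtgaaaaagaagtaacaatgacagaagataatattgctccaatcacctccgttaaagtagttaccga
ITR1, chrIV:1445418-1445717, minus strand: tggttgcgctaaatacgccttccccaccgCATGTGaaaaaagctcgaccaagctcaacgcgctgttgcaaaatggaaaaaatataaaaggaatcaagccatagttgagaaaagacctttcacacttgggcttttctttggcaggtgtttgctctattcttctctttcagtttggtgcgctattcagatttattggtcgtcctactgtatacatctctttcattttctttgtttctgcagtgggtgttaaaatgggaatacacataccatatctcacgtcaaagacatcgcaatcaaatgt
OPI3, chrX:572886-573185, minus strand: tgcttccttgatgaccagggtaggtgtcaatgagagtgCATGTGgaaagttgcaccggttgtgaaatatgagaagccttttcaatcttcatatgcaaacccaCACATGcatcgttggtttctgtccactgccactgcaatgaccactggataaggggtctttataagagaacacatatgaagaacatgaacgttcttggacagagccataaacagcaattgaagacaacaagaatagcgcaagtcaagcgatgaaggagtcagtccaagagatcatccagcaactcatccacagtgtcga
CHO1, chrV:208425-208724, minus strand: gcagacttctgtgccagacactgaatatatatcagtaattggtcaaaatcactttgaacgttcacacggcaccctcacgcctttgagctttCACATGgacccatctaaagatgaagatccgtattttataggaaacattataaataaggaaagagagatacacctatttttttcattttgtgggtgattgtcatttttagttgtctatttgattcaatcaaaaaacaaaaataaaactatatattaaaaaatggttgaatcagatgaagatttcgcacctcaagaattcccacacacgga
The core began 243 and 178 bases before the coding sequence in INO1, 221 in ITR1, 212 and 148 in OPI3 and 159 in CHO1, as read along the gene's strand. The URS1 core of INO1 began 146 bases before the coding sequence, on the other strand.

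INO1 encodes inositol-3-phosphate synthase, the enzyme that commits glucose 6-phosphate to inositol. The gene is a single exon of 1602 bp on chromosome X (134332 to 135933, minus strand). It had 789 and 828 normalized CPM in CRN/PPN1 in manganese, against 39.6 and 34.8 in CRN/PPN1 in control medium. It had 2323 and 2208 normalized CPM in CRN in manganese, against 11.8 and 15.2 in CRN in control medium. The 4 groups did not overlap, with CRN in manganese highest and CRN in control medium lowest. Per coding length, INO1 stood at place 53 of 5537 genes in CRN in manganese (1414 CPM per kb) and at place 4895 in CRN in control medium (8.41 CPM per kb). It stood at place 324 in CRN/PPN1 in manganese (505 CPM per kb) and at place 3702 in CRN/PPN1 in control medium (23.2 CPM per kb). Of the 9 genes, it therefore had the highest level per length in CRN in manganese and the lowest in CRN in control medium.

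The log2 fold change of INO1 in manganese was 4.44 ± 0.23 (SE, n = 2 per group here and below) in CRN/PPN1, or 21.7-fold, and 7.38 ± 0.28 in CRN, or 167-fold. CRN/PPN1 exceeded CRN by a log2 difference of 1.46 ± 0.27 in control medium (2.75-fold), and lay below it at -1.49 ± 0.20 in manganese. The manganese changes of the strains differed by -2.94 ± 0.33. The genes were chosen with such values known, so no p is given for the reads of the 9 genes on their own strand. With reads of either strand, which include the antisense reads described below, the strain difference in control medium was 0.86, under a size of 1.

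**Figure D1:**
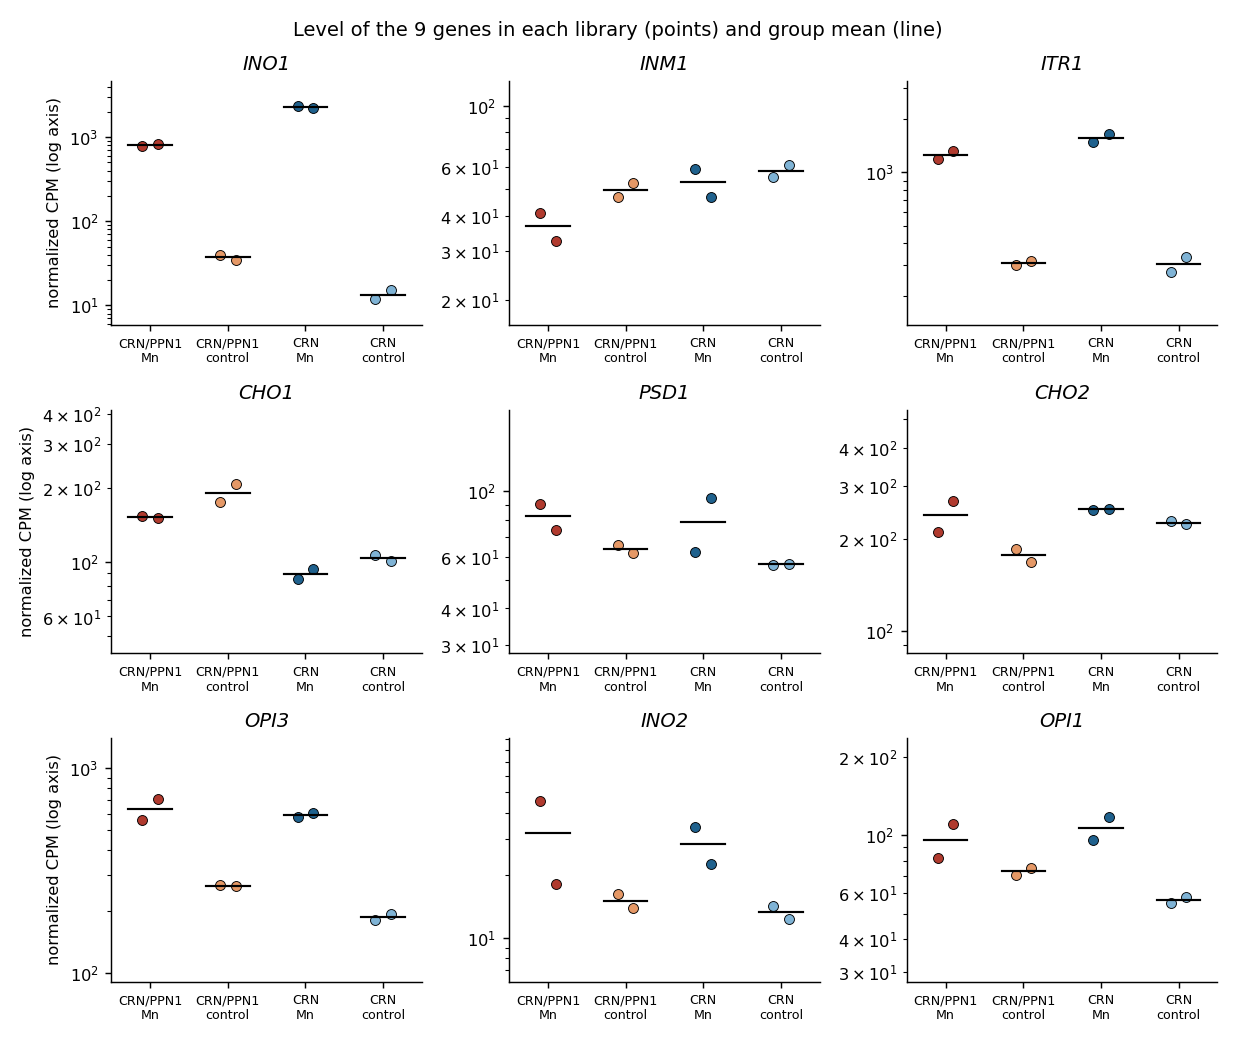
Normalized CPM (log axis) of the 9 genes in each of the 8 libraries (points, 2 per group) with the group mean (line). INO1 lies between 11.8 and 2323 CPM with no overlap among the groups, ITR1 and OPI3 are higher in both manganese groups, and INM1 stays between 32.6 and 61.3 CPM.

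The phosphate is then removed by INM1, an inositol monophosphatase (888 bp, chromosome VIII, 197398 to 198285, minus strand). INM1 had 32.6 to 61.3 CPM over all 8 libraries, with the 2 CRN/PPN1 manganese libraries lowest. Its log2 differences between media were -0.43 ± 0.24 in CRN/PPN1 and -0.14 ± 0.24 in CRN, and became 0.23 and 1.34 with library totals. INM2, a further gene for this enzyme that is not among the 9, had 36.6 and 34.2 CPM in CRN/PPN1 in manganese, against 16.3 and 24.8 in CRN/PPN1 in control medium. In CRN it had 44.6 and 48.2 CPM in manganese, against 22.9 and 16.9 in control medium. It rose by 1.22 ± 0.31 in CRN (edgeR quasi-likelihood test, adjusted p = 0.0029), and was not called at 0.79 ± 0.31 in CRN/PPN1 (edgeR adjusted p = 0.054), where library totals gave a called 1.44. The interaction of INM2 was -0.44 and not called (edgeR adjusted p = 0.48).

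ITR1, the main inositol transporter of the plasma membrane, is 1755 bp long and lies on chromosome IV (1443713 to 1445467, minus strand). It had 1196 and 1327 CPM in CRN/PPN1 in manganese, against 298 and 317 in CRN/PPN1 in control medium. In CRN it had 1479 and 1643 CPM in manganese, against 275 and 332 in control medium. The manganese libraries of both strains were above all 4 control libraries. The control groups overlapped, and the manganese groups did not, with CRN higher. Its log2 fold change in manganese was 2.04 ± 0.21 in CRN/PPN1 and 2.36 ± 0.21 in CRN, and the log2 difference of CRN/PPN1 from CRN was 0.02 in control medium and -0.31 in manganese.

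CHO1 encodes phosphatidylserine synthase (831 bp, chromosome V, 207644 to 208474, minus strand). It had 153 and 151 CPM in CRN/PPN1 in manganese, against 175 and 208 in CRN/PPN1 in control medium. The CRN cultures had 85.1 and 93.4 CPM in manganese, against 107 and 101 in control medium. Its groups were separated by strain, with all 4 CRN/PPN1 libraries above all 4 CRN libraries. CRN/PPN1 exceeded CRN by a log2 difference of 0.88 ± 0.19 in control medium and 0.77 ± 0.18 in manganese. With library totals these differences were 1.40 and 0.46. The log2 fold changes with manganese were -0.33 in CRN/PPN1 and -0.22 in CRN, and turned to 0.33 and 1.27 with library totals. CHO1 was the only one of the 9 genes that was higher in CRN/PPN1, without overlap, in both media. Of all tested genes, 28.2% were higher without overlap in control medium and 31.7% in manganese, so nothing is read from it.

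Phosphatidylserine is decarboxylated to phosphatidylethanolamine by the mitochondrial enzyme Psd1 (1503 bp, chromosome XIV, 316169 to 317671, minus strand). PSD1 had 56.4 to 94.6 CPM over the 8 libraries, and the CRN libraries in manganese, at 62.3 and 94.6, were the farthest apart. Its log2 fold changes in manganese were 0.37 ± 0.23 in CRN/PPN1 and 0.47 ± 0.24 in CRN. On reads of either strand the value in CRN/PPN1 was 1.10. Fewer reads were counted to PSD1 that way, with 42 and 36 against 91 and 101 in the CRN control libraries. The reason was not tested. CHO2 and OPI3 encode the methyltransferases that turn phosphatidylethanolamine into phosphatidylcholine. CHO2, which carries out the first methylation (2610 bp, chromosome VII, 802440 to 805049, plus strand), had 169 to 268 CPM over the 8 libraries, with the CRN/PPN1 control libraries lowest. Its log2 fold changes in manganese were 0.43 in CRN/PPN1 and 0.15 in CRN.

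OPI3, which carries out the later methylations, is the shortest of the 9 genes (621 bp, chromosome X, 572315 to 572935, minus strand). It had 559 and 705 CPM in CRN/PPN1 in manganese, against 269 and 264.5 in CRN/PPN1 in control medium. Libraries of CRN had 581 and 605 CPM in manganese, against 181 and 193 in control medium. The manganese groups overlapped each other and lay above both control groups, of which CRN/PPN1 was the higher. Its log2 fold change was 1.24 ± 0.19 in CRN/PPN1 and 1.66 ± 0.20 in CRN. CHO2 and OPI3 thus had different values in manganese, although both are reported targets of Ino2 and Ino4. OPI3 had 1018 CPM per kb in CRN/PPN1 in manganese and 429.5 CPM per kb in CRN/PPN1 in control medium, the highest level per length of the 9 genes in each.

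INO2, the activator subunit whose gene is itself regulated by inositol (915 bp, chromosome IV, 698554 to 699468, minus strand), had 45.6 and 18.1 CPM in CRN/PPN1 in manganese, against 16.3 and 13.9 in CRN/PPN1 in control medium. In CRN it had 34.3 and 22.6 CPM in manganese, against 14.3 and 12.4 in control medium. All 4 manganese libraries were above all 4 control libraries, but the replicates in manganese were far apart. The log2 fold change was 1.07 ± 0.43 in CRN/PPN1 and 1.09 ± 0.45 in CRN. The value in CRN/PPN1 was 0.28 without its first manganese culture and 1.60 without the second.

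OPI1, the repressor (1215 bp, chromosome VIII, 66242 to 67456, minus strand), had 81.6 and 110.5 CPM in CRN/PPN1 in manganese, against 70.6 and 75.3 in CRN/PPN1 in control medium. CRN cultures had 96.4 and 118 CPM in manganese, against 55.1 and 57.9 in control medium. Its log2 fold change in manganese was 0.40 in CRN/PPN1 and 0.92 ± 0.22 in CRN. INO2 and OPI1 were both higher in manganese without overlap in both strains. The same held for 34.8% of all tested genes in CRN/PPN1 and 44.3% in CRN, so nothing is read from it.

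**Figure D2:**
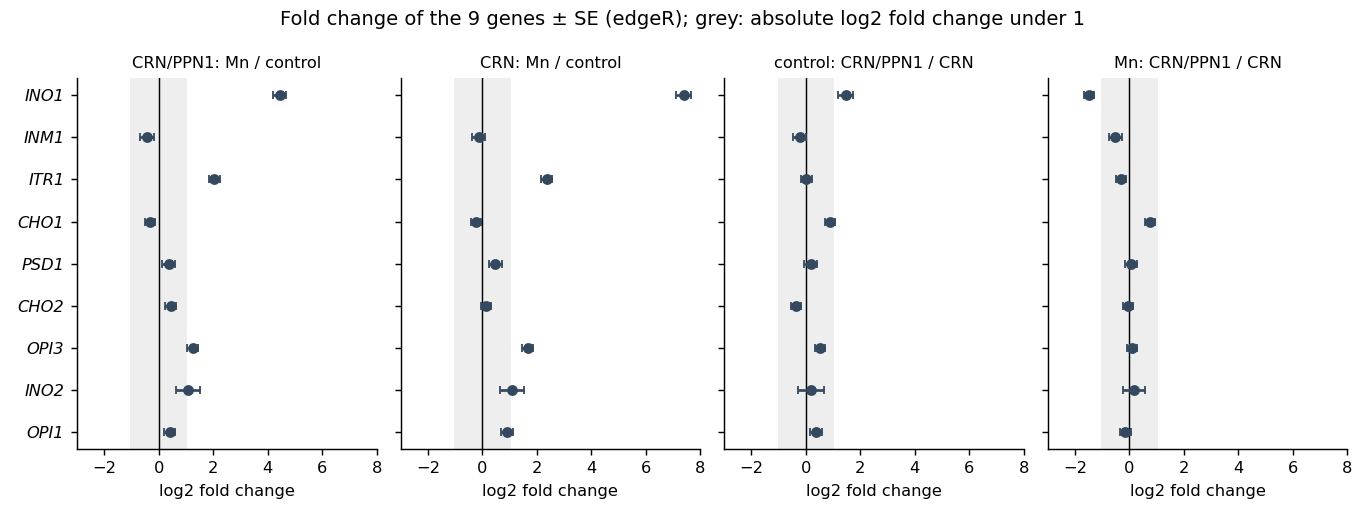
Log2 fold changes of the 9 genes ± SE from edgeR in 4 comparisons, with absolute values under 1 in grey. INO1 is at 4.44 and 7.38 in manganese, 1.46 between the strains in control medium and -1.49 between them in manganese, and ITR1 and OPI3 exceed 1 in manganese in both strains.

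The call rule asked for an adjusted p no higher than 0.05 together with a change of 1 or more in either direction on the log2 scale. By it 3 of the 9 genes (INO1, ITR1 and OPI3) were up and 0 were down in manganese in CRN/PPN1, where 10.1% of all tested genes were called up and 15.1% called down. In CRN 4 were up (these 3 and INO2) and 0 were down, where 24.7% of tested genes were called up and 24.0% down. INO1 alone was past the rule between the strains, upward in control medium (4.45% of genes called up, 4.45% down) and downward in manganese (10.4% called up, 7.37% down). It was also the only one past the rule in the interaction of strain and medium, downward (15.0% called up, 11.6% down). In CRN, 3 of the 9 were up with DESeq2. By overlap of the libraries, 7 of 9 were higher and 2 lower in manganese in CRN/PPN1 (34.8% and 35.2% of all genes), and 7 of 9 higher and 1 lower in CRN (44.3% and 39.7%). Between the strains 5 were higher and 2 lower in control medium (28.2% and 29.6%), and 1 higher and 3 lower in manganese (31.7% and 33.1%). The median log2 fold change of the 9 genes was 0.43 in CRN/PPN1, beside 0.015 over all genes, and 0.92 in CRN, beside 0.09 over all genes. Because the choice of genes used these contrasts, the counts describe the genes and nothing is read from them. Each manganese comparison shares libraries with both strain comparisons.

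Short genes lost counts in manganese. Of the genes split by coding length into 5 sets of like size, the shortest set was 78 to 648 bp long, and its median log2 fold change was -1.21 in CRN/PPN1 and -2.29 in CRN. OPI3 belongs to these short genes, where 42 of 1111 genes in CRN/PPN1 and 83 of 1111 in CRN had a higher value than OPI3. INO1 is among the next to longest, where 2 of 1108 genes in CRN/PPN1 and 3 of 1108 in CRN were higher. With the trend on length removed, the log2 fold change of OPI3 was 1.82 in CRN/PPN1 and 2.93 in CRN, and that of INO1 was 4.21 in CRN/PPN1 and 6.88 in CRN. ITR1 was then at 1.77 in CRN/PPN1 and 1.76 in CRN. The genes of the 9 past the rule in manganese were the same as before in each strain. In CRN the values of CHO2 (-0.61), INM1 (0.02) and CHO1 (0.09) turned sign, none of them past the rule. The difference of CHO1 between the strains in control medium became 1.00 and the interaction of OPI3 -1.11, both past the rule.

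**Figure D3:**
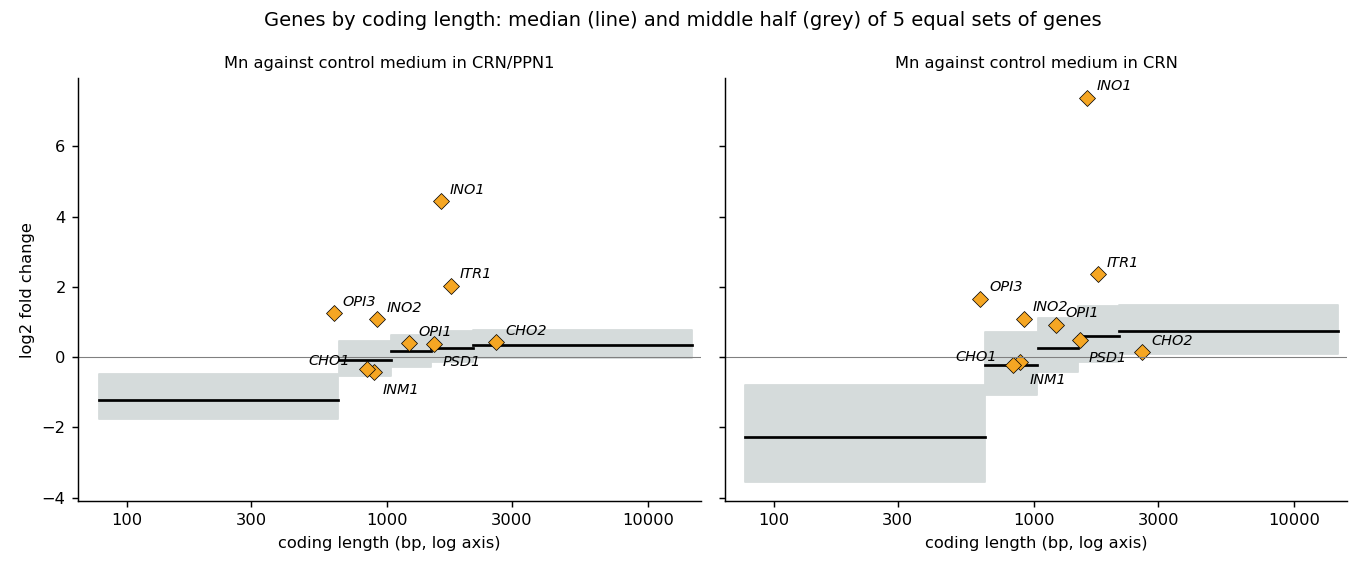
Log2 fold change in manganese against coding length (bp, log axis) in each strain, with the median (line) and middle 50% (grey) of the 5 sets of genes by length and the 9 genes as diamonds. The shortest set has a median of -1.21 in CRN/PPN1 and -2.29 in CRN, while OPI3, in this set, is at 1.24 and 1.66.

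The rest of the pathway was described from 11 lists of 76 genes, of which 67 are not among the 9, and all 67 passed the filter. In manganese in CRN/PPN1, 6 of the 67 rose and 3 fell, beside 10.1% of all tested genes called up and 15.1% down, and their median was 0.19, beside 0.015 over all genes. In CRN, 18 rose and 5 fell, beside 24.7% and 24.0% of all genes, with a median of 0.31, beside 0.09 over all genes. Library totals gave 25 rises and 0 falls in CRN/PPN1, and in CRN 53 and 1. Of the 9 reported targets of Ino2 and Ino4 outside the chosen genes, only FAS2 was called up in CRN/PPN1, and in CRN only CKI1 up and HNM1 down with TMM scaling. Their median was 0.15 in CRN/PPN1 and -0.54 in CRN, and 5 of these 9 windows hold the CATGTG core.

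In the phospholipid turnover list, 2 of 8 genes rose in CRN/PPN1, where 10.1% of all genes were called up, and 4 of 8 in CRN, where 24.7% were. PLB1, a phospholipase B that removes both acyl chains, had 392 and 355 CPM in CRN/PPN1 in manganese, against 60.0 and 93.6 in CRN/PPN1 in control medium. It had 892 and 822 CPM in CRN in manganese, against 49.6 and 41.0 in CRN in control medium. It rose by 2.28 ± 0.23 in CRN/PPN1 (edgeR quasi-likelihood test, adjusted p = 3.8e-06) and by 4.24 ± 0.25 in CRN (adjusted p = 2.7e-09). GDE1, which splits the glycerophosphocholine that phospholipase B leaves, rose by 2.15 ± 0.28 in CRN/PPN1 (edgeR adjusted p = 2.7e-05) and by 3.60 ± 0.29 in CRN (adjusted p = 3.5e-08). PLB1 and GDE1 rose less in CRN/PPN1, with interaction terms of -1.96 ± 0.32 (edgeR adjusted p = 3.5e-04) and -1.46 ± 0.40 (adjusted p = 0.012). The interaction of GDE1 was -0.99 with the length trend removed or without the second CRN control culture, and then was not called. PLB3, a further phospholipase B, and GPC1, the glycerophosphocholine acyltransferase, were the other risen genes in CRN.

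In the sphingolipid list, SUR1, a subunit that mannosylates inositol phosphorylceramide, rose by 1.13 ± 0.21 in CRN/PPN1 (edgeR adjusted p = 5.5e-04) and by 2.57 ± 0.22 in CRN (adjusted p = 9.4e-08). KEI1, a subunit of the enzyme that makes this lipid from phosphatidylinositol and ceramide, fell by 1.14 in CRN/PPN1 (edgeR adjusted p = 0.0063) and fell by 2.70 in CRN (adjusted p = 1.5e-06). Its fall in CRN/PPN1 was not called with library totals, with the length trend removed or without the first manganese culture (-0.67).

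PIS1, which joins inositol to CDP-diacylglycerol, had 167 and 208 CPM in CRN/PPN1 in manganese, against 214 and 267 in CRN/PPN1 in control medium. In CRN it had 95.4 and 112 CPM in manganese, against 256.5 and 321 in control medium. It fell by 1.48 in CRN (edgeR adjusted p = 1.7e-05), but was at -0.01 with library totals and not called with the length trend removed, and it was not called in CRN/PPN1. HNM1, the choline transporter, fell by 1.57 in CRN (edgeR adjusted p = 2.5e-06), and was at -0.08 with library totals. In manganese, HNM1 in CRN/PPN1 exceeded CRN by a log2 difference of 1.31 ± 0.18 (edgeR adjusted p = 9.2e-05). That call was lost on reads of either strand (0.78) and with library totals.

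In the cardiolipin list, GEP4, which makes phosphatidylglycerol in mitochondria, fell by 1.32 in CRN/PPN1 (edgeR adjusted p = 0.0015) and fell by 2.08 in CRN (adjusted p = 6.4e-06). With the length trend removed it was at -0.52 in CRN/PPN1 and -0.39 in CRN, neither called. CLD1, a cardiolipin phospholipase, had 86 and 127 counts in CRN in manganese, against 1 and 1 in CRN in control medium, a ratio of 32.9 with a 95% counting interval from 9.01 to 273.8. In CRN/PPN1 it had 28 and 25 counts in manganese, against 23 and 9 in control medium. In the storage lipid list, ARE1, a sterol acyltransferase, rose by 1.65 in CRN/PPN1 (edgeR adjusted p = 1.5e-04) and by 2.30 in CRN (adjusted p = 1.1e-06). SAC1, a phosphoinositide phosphatase, rose by 1.46 in CRN/PPN1 (edgeR adjusted p = 5.7e-05) and by 1.22 in CRN (adjusted p = 9.4e-05).

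INO4, the partner of Ino2, had 34.3 and 42.1 CPM in CRN/PPN1 in manganese, against 81.6 and 80.1 in CRN/PPN1 in control medium. The CRN libraries had 39.9 and 45.6 CPM in manganese, against 70.0 and 64.1 in control medium. It was called down in CRN/PPN1 at -1.08 (edgeR adjusted p = 0.0012) and was not called in CRN, where its value was -0.65. With the length trend removed these values turned to 0.07 in CRN/PPN1 and 1.68 in CRN, and that of CRN was 0.85 with library totals, so no direction is given for INO4. The other 3 regulators in the lists, SCS2, UME6 and SIN3, were called in neither strain.

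**Figure D4:**
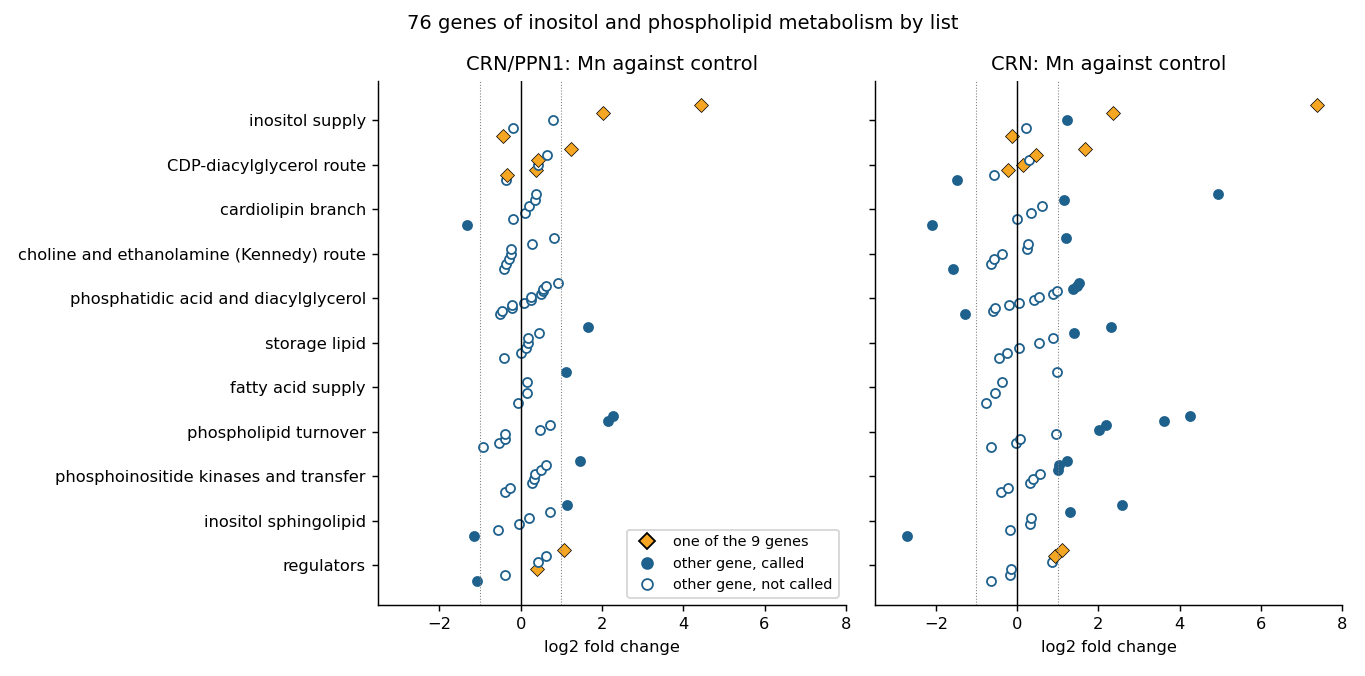
Log2 fold change in manganese of the 76 genes by list, in CRN/PPN1 and CRN, with the 9 genes as diamonds, other called genes as filled circles and other genes as open circles. INO1 has the highest value in both panels, and 6 of the 67 other genes are called up in CRN/PPN1 and 18 in CRN with TMM scaling, against 25 and 53 with library totals.

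Between the strains in control medium, 2 of the 67 other genes were higher in CRN/PPN1 with edgeR, beside 4.45% of all genes. These were CLD1 (32 counts in CRN/PPN1 and 2 in CRN, a ratio of 11.4 with a 95% counting interval from 2.92 to 98.5) and GPC1 (1.24 ± 0.21, edgeR adjusted p = 0.0013). The call of CLD1 was lost without the first CRN/PPN1 control culture or either CRN control culture. In manganese, 3 of the 67 were higher in CRN/PPN1 (HNM1, OLE1 and AYR1) and 4 were lower (GDE1, ARE1, PLB1 and NTE1), beside 10.4% and 7.37% of all genes, and library totals gave 0 and 8. OLE1, the fatty acid desaturase, exceeded its CRN level by 1.10 ± 0.19 (edgeR adjusted p = 4.7e-04), which library totals brought to 0.79. ARE1 lay below its CRN level at -1.40 ± 0.23 (edgeR adjusted p = 3.2e-04).

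Reads antisense to INO1 were a measure that the choice of genes did not use, and they were tested after their values had been seen. The library kit named in the methods does not mark strand, yet 90.7% to 93.3% of the stranded gene counts lay on one strand, and calling reads sense or antisense rests on that share. INO1 had 10 and 9 antisense counts in CRN/PPN1 in manganese, against 60 and 80 in CRN/PPN1 in control medium. It had 14 and 0 antisense counts in CRN in manganese, against 43 and 33 in CRN in control medium. Each manganese library was below each control library of either strain. On its own strand, INO1 had 2438 and 2519 counts in CRN/PPN1 in manganese, against 97 and 80 in control medium, and 11937 and 12879 in CRN in manganese, against 19 and 27 in control medium. In the CRN control libraries the antisense counts were thus above the sense counts.

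Antisense reads of INO1 fell by 3.24 ± 0.78 in CRN/PPN1 (edgeR over the antisense counts of 2843 genes, adjusted p = 0.015) and fell by 4.06 ± 0.82 in CRN (adjusted p = 0.0016). Of all antisense counts tested, 11.0% were called down in CRN/PPN1 and 21.4% in CRN. These counts were scaled with the library sizes and TMM factors of the sense counts. With library totals the values of INO1 were -2.59 in CRN/PPN1 and -2.56 in CRN. The share of stranded counts on the main strand was 92.49% to 93.33% in manganese libraries and 90.68% to 91.25% in control libraries. The call in CRN/PPN1 was lost when any of its 4 libraries was left out (edgeR adjusted p from 0.053 to 0.12). The value in CRN was -9.02 without its first manganese culture, since the other one held 0 antisense counts. RefSeq lists no gene that overlaps INO1. Between the strains in control medium the difference was 0.39 ± 0.68 (edgeR adjusted p = 0.985). Of the other 8 genes, CHO1 and PSD1 alone had antisense reads that passed the filter, and neither was called in any comparison.

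**Figure D5:**
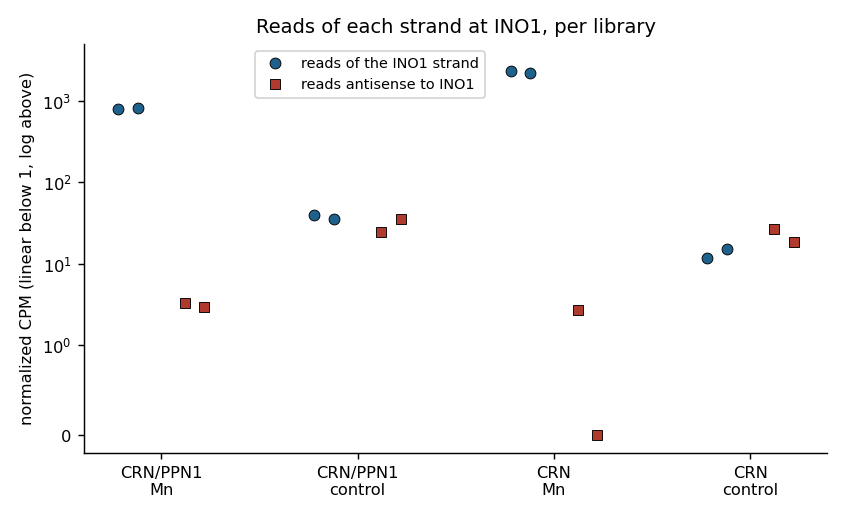
Normalized CPM (linear below 1, log above) of reads on the INO1 strand (circles) and antisense to it (squares) in each of the 8 libraries. Antisense reads are at 0 to 3.24 CPM in manganese libraries and 18.5 to 34.8 CPM in control libraries, while INO1 reads are at 789 to 2323 CPM in manganese and 11.8 to 39.6 CPM in control medium.

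Likeness to INO1 was measured by the root mean square difference of the 4 group means of log2 CPM, each profile centred on its own mean. The spread between replicates does not enter it. The 5 tested genes most like INO1 were YNR064C (0.42), YLR338W (0.51), EMA35 (0.60), YMR085W (0.64) and HXT5 (0.69). HXT5, a hexose transporter, had 76.7 and 114 CPM in CRN/PPN1 in manganese, against 3.26 and 8.70 in CRN/PPN1 in control medium. In CRN it had 97.1 and 123 CPM in manganese, against 1.86 and 1.12 in control medium. YLR338W is a dubious frame that overlaps VRP1, and EMA35 overlaps YCR099C, so their reads are uncertain. In the control libraries YNR064C had 0 to 0.62 CPM, YLR338W 0 to 0.82 and EMA35 0.41 to 4.35. The likeness of these genes to INO1 therefore rests on values near the floor in control medium. None of the 5 is in the pathway lists. By Pearson correlation over the 8 libraries, which ignores the size of the change, the nearest 5 shared 1 gene with these (YMR085W). ITR1 stood at place 254 and OPI3 at place 637 of the tested genes in likeness to INO1, ahead of the other members.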

How the data were processed

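RNA from 8 cultures, 2 for each of the 4 groups, was sequenced by the authors. Per the submitters' processing notes, reads were trimmed with Trimmomatic 0.36, then mapped and counted with STAR 2.5.3a against the R64 build. The deposited values are raw counts of uniquely mapped reads per gene. Each library's file holds counts on either strand, on the gene's strand and on the opposite strand, and the series table equals the last of these (57008 of 57008 values), which held 90.7% to 93.3% of the stranded gene counts. These counts were used, and the 25.8% to 34.6% of reads outside the gene rows entered no library size or test.

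Tests covered the 5778 genes that reached 2 CPM in 4 or more of the 8 libraries. The counts were scaled with TMM factors and fitted with the quasi-likelihood F test of edgeR 4.0.16 in R 4.3.3, as 4 groups in one model without a block. P-values are two-sided, with Benjamini-Hochberg adjustment over all tested genes, and the biological coefficient of variation was 0.18. Steps were tested on simulated data. Depth was 2309776 to 3579469 counts, and counting intervals cover counting error only.

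The 9 genes, the pathway lists and the tests were chosen with earlier results of these data known. The text names the 9 genes, INO4 and the regulators, PPN1, up to 4 called genes of the lists with the largest change per comparison and direction, and the 5 genes nearest to INO1 in profile. INM2, PLB3 and GPC1 in CRN, and further genes called in counts of at most 5, were named after their values were seen. Promoter windows were read from the RefSeq R64 genome, the build of the files, since no promoter table was at hand. All 76 pathway genes were matched by identifier in RefSeq. The fit of antisense counts was added after the data were seen. Alternatives were DESeq2 1.42.0, its size factors in edgeR, the later edgeR form, library totals, no filter, counts on either strand, removal of the length trend (lowess, span 0.3), a replicate block and leaving out each library.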

Additional observations from a re-analysis of the deposited data

Results flagged for a closer look

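In 12 genes the change with manganese differed between the strains, by an interaction term past the call rule (adjusted p at most 0.05, absolute log2 value at least 1), where 15.0% of all tested genes were called up and 11.6% down. A negative value means a smaller or more negative log2 fold change in CRN/PPN1 than in CRN. INO1 had -2.94, given as a description since the gene was chosen with these values known. Among the other pathway genes, 5 of the 8 genes of phospholipid turnover had negative terms past the rule, PLB1 (-1.96), PLB3 (-1.73), GDE1 (-1.46), NTE1 (-1.34) and GPC1 (-1.29). SUR1 (-1.44) and CLD1 (-4.57) were negative as well, and the fitted value of CLD1 rests on 1 count in each CRN control library and depends on the prior count. KEI1 (1.56), HNM1 (1.34), PIS1 (1.12) and CDS1 (1.00), which makes CDP-diacylglycerol, had positive terms. With library totals those of KEI1, HNM1, PIS1 and CDS1 were 0.74, 0.52, 0.32 and 0.19 and were not called. Growth time in manganese, 16 h in CRN/PPN1 and 40 h in CRN, cannot be told apart from the strain in any of these terms.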

How the results depend on the processing

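The members' large values kept their direction under every alternative run. INO1 had a log2 fold change of 3.67 to 5.11 in manganese in CRN/PPN1 and 5.996 to 8.86 in CRN, ITR1 1.76 to 2.70 and 1.76 to 3.83, and OPI3 1.08 to 1.91 and 1.60 to 3.15. INO1 and INO2 had 19 to 27 counts in the CRN control libraries and CLD1 1 in each, and no value has more than 2 cultures a group.

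With library totals in place of TMM, INM1 (1.34), CHO1 (1.27) and INO4 (0.85) reversed in CRN, and INO4 turned to 1.68 in CRN (1.68 with the block) and 0.072 in CRN/PPN1 (0.068 with the block) with the length trend removed. Library totals shifted the median of all genes by 1.48 in CRN, and the cause of the length trend was not tested. Genes of all kinds called up and down with library totals were 1870 and 404 for manganese in CRN/PPN1, against 582 and 870 with TMM, and 3681 and 609 in CRN, against 1426 and 1389. Between the strains they were 913 and 37 in control medium, against 257 and 257, and 392 and 878 in manganese, against 599 and 426, and for the interaction 366 and 2149, against 866 and 672. Of the 9 genes, 7 were up in CRN/PPN1, 9 in CRN, 3 between the strains in control medium and 5 down in the interaction. Of the 67 others, 25 were up and 0 down in CRN/PPN1, 53 and 1 in CRN, 12 up between the strains in control medium, 0 up and 8 down in manganese, and 0 up and 34 down in the interaction.

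With the length trend removed, called genes were 326 down in CRN/PPN1 (341 with the replicate block), 66 down between the strains in control medium (73 with the block), 302 up between them in manganese (300 with the block) and 576 up in the interaction. Of the 9 genes, 2 were up between the strains in control medium and 2 down in the interaction, and of the 67 others 11 were up and 11 down in CRN, 1 down in CRN/PPN1 and 2 down between the strains in manganese, each the same with the block. On reads of either strand, 0 of the 9 were up between the strains in control medium.

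With each library left out in turn, between the strains in control medium 145 to 322 genes were called up and 101 to 339 down, 1 to 2 of the 9 genes were up, and 1 to 3 of the 67 others were up and 0 to 1 down. INM2, not called between the strains in control medium, was then at -0.28 to 0.33 there. Between the strains in manganese 3 to 5 of the 67 were up and 4 to 7 down, and in the interaction 1 to 4 were up. The replicate numbers do not pair the cultures by any label, and the deviations of same-numbered cultures correlated at 0.036 to 0.217 over 5778 genes. With the replicate block 17 of the 67 genes were up in CRN, against 18, and the counts for the 9 genes did not change.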
